A study of Ovis aries with 6 samples.

Results

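A group of 106 annotated sheep genes gave abundant RNA in germinal vesicle (GV) oocytes and little RNA in metaphase II (MII) oocytes. The genes were selected by their measured levels in CPM, the count of a gene per 1000000 counts of its library. Each had an Ensembl identifier with a number under 25000, a mean of at least 50 CPM over the GV libraries, and a mean over the MII libraries of at most 1 part in 6 of the GV mean. They were drawn from 25609 features in all, of which 18000 were annotated genes with such a number and 2897 of those had at least 50 CPM in GV. The reduced genes were 3.66% of these 2897.

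The series holds 6 libraries of total RNA from oocytes of sheep labelled Xinjiang Sheep, 3 at the GV stage and 3 at the MII stage, with no other treatment or genotype stated. Each library was a pool of 30 to 35 oocytes from follicles of 2 to 8 mm, and separate animals for the pools are not stated, so spread between them may be technical. GV oocytes were those found bare on collection, whereas MII oocytes came from complexes with cumulus cells, were stripped of these with hyaluronidase, were kept in maturation medium at 38.5 °C under 5% CO2 for 23 to 25 h, and were picked once a first polar body was out. Stage, culture and the kind of complex collected therefore cannot be told apart. Total counts were 26984892 to 28117286 in GV and 28578411 to 31962405 in MII.

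A full-grown GV oocyte has an intact nucleus, holds a large store of maternal messenger RNA and has largely stopped making more. When meiosis resumes, stored messages are sorted, some gaining longer poly(A) tails and being translated and others losing their tails and being degraded, so that the set of maternal messages in an MII oocyte differs from that of a GV oocyte. Loss of maternal RNA during this time is well known in mammals. The deposited table gives identifiers without gene names, and none of the 106 could be matched to a symbol, so the functions of these genes, their positions and the oocyte or cumulus markers of the libraries are not described here. In pooled material, fewer cells of a type and less RNA per cell cannot be told apart, and all levels are relative to the total RNA sequenced in a library. CPM is not corrected for gene length, so the order of the genes is an order of read counts and not of molecules.

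The most abundant of the 106 genes was ENSOARG00000001702. It had 2942, 2875 and 2987 CPM in GV replicates 1, 2 and 3 and 400.4, 295 and 197 CPM in MII replicates 1, 2 and 3. The GV pools lay close together, the MII pools differed by 2.03-fold between the highest and the lowest, and the stages were far from overlapping. Its level averaged 2935 ± 56.4 CPM over the GV pools and 297 ± 102 CPM over the MII pools (SD, n = 3 each), so GV was 9.87-fold higher and 10.1% of the GV level remained. Among all 25609 features it ranked 21st by mean level in GV and 637th in MII.

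The strongest reduction was in ENSOARG00000002087, a gene of moderate level. It had 57.1, 83.3 and 80.2 CPM in the GV replicates and 5.91, 2.49 and 1.56 CPM in the MII replicates, the last 3 resting on 169, 78 and 50 counts. All GV values were well above all MII values, and MII replicate 1 held the most of what remained. The means were 73.5 ± 14.3 CPM at GV and 3.32 ± 2.29 CPM at MII (SD, n = 3 per stage), a 22.1-fold difference that left 4.52% of the GV level. The ratio was 36.2 without MII replicate 1 and 17.5 without MII replicate 3.

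Between these examples the 106 genes ranged from 50.3 to 2935 CPM in GV, with a median of 117, and from 3.09 to 297 CPM in MII, with a median of 14.3. The ratio of GV to MII had a median of 7.87 and quartiles of 6.86 and 9.21. It reached 8 in 51 genes and 10 in 18 genes. The level that remained in MII was 4.52% to 16.6% of the GV mean, with a median of 12.7%. Most genes were thus still readily counted at MII: 73 of the 106 kept a mean of at least 10 CPM there and 13 kept at least 50 CPM. The lowest count of any of them in any MII library was 50. By rank of mean level among all features, the median of the genes moved from 1784 in GV to 6186 in MII.

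**Figure D1:**
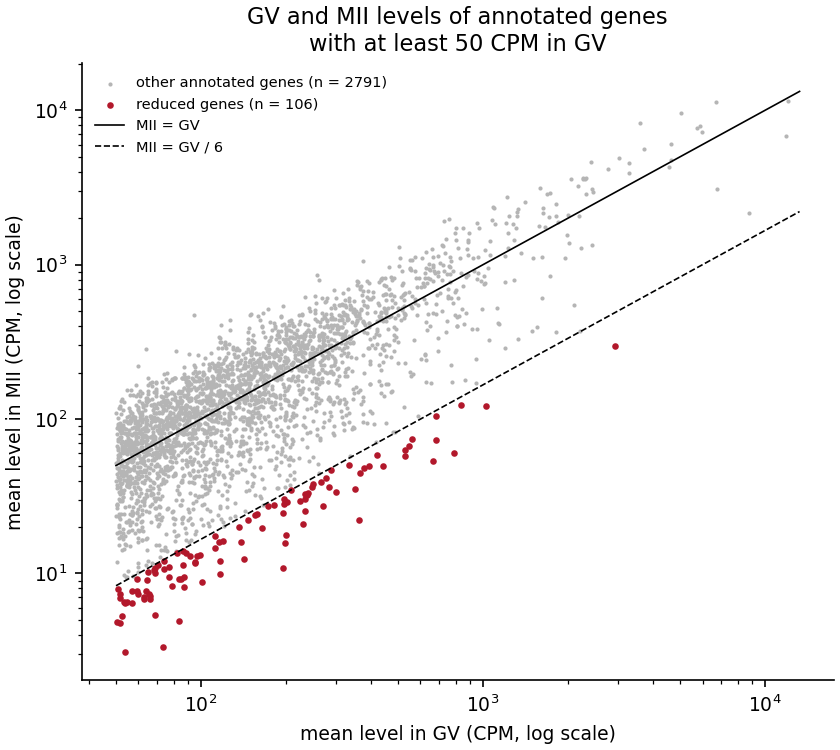
Mean CPM in MII (y axis, log scale) against mean CPM in GV (x axis, log scale), each over 3 libraries, for the 2897 annotated genes with at least 50 CPM in GV. The 106 reduced genes (red) lie under the dashed line of a 6-fold difference, which chose them, and the 2791 others (grey) lie above it with no gap between the groups.

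The 106 genes were the far end of a continuous distribution. Of the 2897 abundant annotated genes, 580 had a GV mean at least 2-fold above the MII mean, 320 at least 3-fold, 203 at least 4-fold, 154 at least 5-fold and 51 at least 8-fold. The nearest genes left out by the ratio went from 121 to 20.3 CPM (5.95-fold) and from 166 to 28.0 CPM (also 5.95-fold), while the nearest ones kept went from 209 to 34.8 CPM (6.01-fold) and from 82.4 to 13.6 CPM (6.07-fold). At the limit of level, genes of 49.9 and 49.4 CPM in GV were left out with ratios of 14.1 and 10.01, and genes of 50.3 and 50.8 CPM were kept with ratios of 10.3 and 6.40. A further 135 annotated genes with 10 to 50 CPM in GV met the same ratio.

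The rule set a lower limit on both the GV level and the ratio, so the ratios of genes of different abundance are given as a description. The 10 most abundant of the 106 (530.03 to 2935 CPM in GV) had a median ratio of 8.41, the next 40 (139 to 527 CPM) a median of 7.62, and the remaining 56 (50.3 to 136 CPM) a median of 8.05. In the top 10, the library medians were 738, 684 and 663 CPM in GV replicates 1 to 3 and 108, 75.9 and 45.2 CPM in MII replicates 1 to 3. In the lowest 56, the MII library medians were 11.1, 10.9 and 5.91 CPM. In each of these abundance classes the median was lowest in MII replicate 3.

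**Figure D2:**
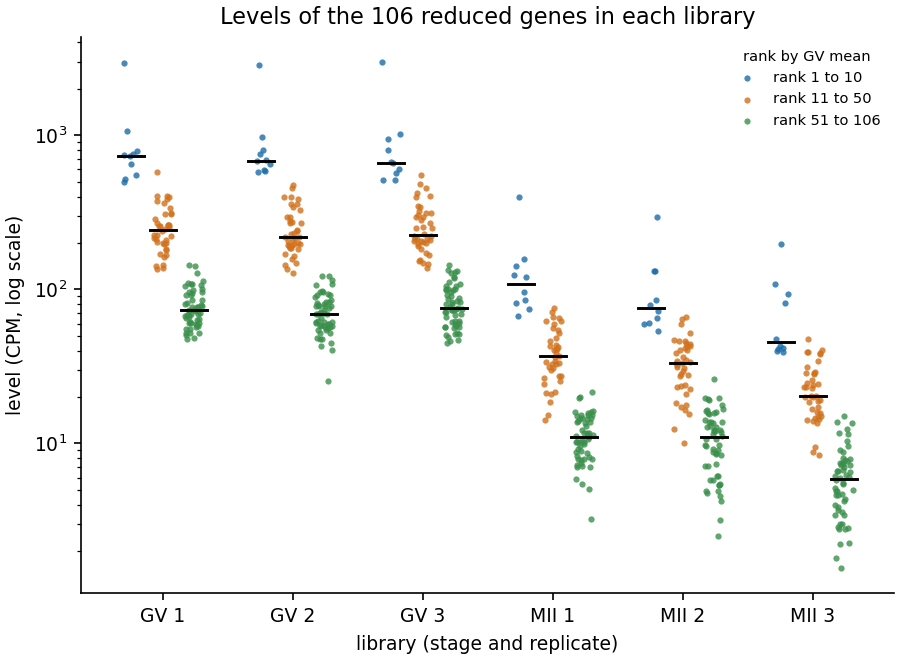
Level of each of the 106 reduced genes (points, CPM on a log scale) in the 6 libraries, in 3 classes by rank of GV mean, with black bars at class medians. GV libraries look alike, and MII replicate 3 lies lowest in every class, with a median of 45.2 CPM in the top 10 against 108 in MII replicate 1.

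Together the 106 genes held 2.39%, 2.31% and 2.44% of all counts in the GV replicates and 0.357%, 0.300% and 0.200% in the MII replicates. Counting limited these shares little, since the widest 95% Wilson interval reached 0.00577 percentage points to each side. Such intervals cover counting error alone, as reads that carry no molecular identifier may be copies of one molecule. The means were 2.38 ± 0.0612% in GV and 0.286 ± 0.0794% in MII (SD, n = 3 each), a difference of 2.09 percentage points of all counts. Relative to the GV mean, the summed level was 14.99% in MII replicate 1, 12.6% in replicate 2 and 8.41% in replicate 3. The group was not carried by a single gene. The most abundant one supplied 12.3 ± 0.0821% of the group's counts in GV and 10.3 ± 0.803% in MII, the 10 most abundant 38.8 ± 0.816% and 36.2 ± 1.71%, and the 56 least abundant 18.1 ± 0.708% and 18.6 ± 1.72% (SD, n = 3). The make-up of the group by abundance class was therefore similar at both stages, though its sum was much lower in MII. The rule held every gene to a ratio of at least 6, and the quartiles of the ratio were 6.86 and 9.21. Both the likeness in make-up and the lower sum thus follow largely from the choice of genes.

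The rule used the stage difference, so the following calls describe the group and support nothing. All 106 genes had each GV value above each MII value, where 43.7% of the 19302 tested features did. Their lowest GV value exceeded their highest MII value by 3.12-fold to 14.6-fold, with a median of 5.196-fold. All 106 were also called lower at MII by the quasi-likelihood test of edgeR, at an adjusted p under 0.05 by Benjamini and Hochberg's method over all features, where 26.2% of the tested features were and 20.8% of annotated genes with at least 50 CPM in GV. The fitted log2 fold change of MII minus GV ranged from −4.06 to −2.15 with a median of −2.55, beside a median of −0.01 over all tested features.

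Scaling mattered for the size of the decrease. The trimmed mean of M-values (TMM), which equalises the bulk of the features between libraries, lowered the median ratio of the 106 genes from 7.87 to 5.86, and 42 of them then still met both limits of the rule. With library totals the median log2 fold change was −2.98, but that of all tested features was also lower, at −0.45. The median of the genes minus that of all features was −2.55 with TMM and −2.53 with library totals on the log2 scale. Over all features, 4769 were called higher and 5057 lower with TMM (48.5% of calls higher), and 2332 higher and 7140 lower with library totals (24.6% higher). All 106 genes were called lower under both.

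Levels in libraries that took no part in the choice are given as a description. The rule was applied 9 times without 1 GV and 1 MII library, and the 2 libraries left out were then compared, a check chosen after the data were seen. It chose 70 to 142 genes, and in each of the 9 cases every chosen gene was higher in the GV library left out than in the MII library left out. Of all tested features, 64.5%, 64.5% and 64.6% were higher in GV replicates 1, 2 and 3 than in MII replicate 1, 62.0%, 61.9% and 62.4% than in MII replicate 2, and 68.2%, 68.6% and 68.9% than in MII replicate 3. How far the values fell depended on the MII library. With MII replicate 3 left out, 98.6% to 100.0% of the chosen genes had a ratio of at least 6, and the median ratio was 12.0 to 13.4, where 12.6%, 12.4% and 12.8% of all tested features had such a ratio with GV replicates 1, 2 and 3. With MII replicate 1 or 2 left out, 40.8% to 64.7% had such a ratio, the median was 5.65 to 7.26, and the lowest ratio of a single gene was 1.23. Of all tested features, 4.71%, 4.05% and 4.89% reached a ratio of 6 between GV replicates 1, 2 and 3 and MII replicate 1, and 6.39%, 6.79% and 6.46% between them and MII replicate 2. The 6-fold size was not met by many of these genes in MII replicate 1 or 2 when left out. Choosing genes that are low in the other MII libraries by itself favours a higher value in the one left out. The smaller ratios there may thus follow from the choice. The libraries left out belong to the same series and may share animals with the others. All tested features include those of any level and any ratio, so these shares are a description. The gap of at least 6-fold in the libraries used was mostly much wider than the spread between pools of one stage. The direction in the libraries left out was therefore nearly set by the choice and supports nothing.

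Pools of MII oocytes differed more in these genes than pools of GV oocytes. The coefficient of variation (CV, the SD of the 3 pools over their mean) had a median of 0.104 in GV and 0.335 in MII, and it was larger in MII for 101 of the 106 genes. The same held for 75.7% of all 19302 tested features and 83.4% of 2791 other annotated genes with at least 50 CPM in GV. A wider spread in MII was thus common to most features. The highest GV pool exceeded the lowest by a median of 1.22-fold, and the highest MII pool exceeded the lowest by a median of 1.95-fold (range 1.16-fold to 5.34-fold). Counting alone, with every read taken as independent, would give a median CV of 0.0177 in GV and 0.0479 in MII, which covers counting error only and leaves out copies of one molecule and the handling of each pool. In the other 2791 annotated genes with at least 50 CPM in GV the median CV was 0.0775 in GV and 0.169 in MII. In 7258 other annotated genes with an MII level in the same range as the reduced genes it was 0.106 and 0.218. The spread in MII on library totals was wider in classes of abundant annotated genes with a larger decrease. The median CV in MII was 0.141 in the 1487 genes with GV under MII and 0.186 in the 830 with a ratio of 1 to 2. It was 0.248 in the 377 genes with a ratio of 2 to 4. In the 97 genes with a ratio of 4 to 6 the median CV in MII was 0.318, close to that of the 106 genes. It exceeded the CV in GV in 96.9% of those 97 genes and 95.3% of the reduced genes, so the wide spread in MII was shared with genes just short of the rule. The MII mean is the denominator of the CV and part of the rule, and these differences between groups of genes were not tested. On TMM-scaled totals the MII median was 0.275 for the reduced genes, against 0.181 and 0.207 for the same broad groups of other genes and 0.261 for the 97 genes with a ratio of 4 to 6. The classes with GV under MII, a ratio of 1 to 2 and a ratio of 2 to 4 then had 0.177, 0.171 and 0.201. The class with GV under MII was thus not the narrowest with that scaling. On library totals, MII replicate 3 weighed most in the MII spread of the reduced genes. Over the pair of pools left, their median CV in MII was 0.197 without replicate 3, 0.324 without replicate 1 and 0.411 without replicate 2.

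A single gene stood out within GV. The gene ranked 102nd by GV level had 85.1, 25.5 and 44.9 CPM in the GV replicates and 7.07, 4.22 and 3.00 CPM in the MII replicates. Its CV of 0.586 in GV was the highest of the 106, and its GV pools were spread over 3.33-fold. Its GV mean of 51.8 CPM met the limit of 50 CPM only through GV replicate 1, as replicates 2 and 3 lay below that limit. The lowest GV value was above the highest MII value, which the limit on the ratio favours. By contrast the gene ranked second, with 1073, 973 and 1020.4 CPM in GV and 125, 131 and 108 CPM in MII, had nearly level MII pools. Its highest and lowest MII values thus lay much closer together than those of most of the 106 genes.

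The 3 MII pools kept unequal amounts of these RNAs, and for most genes the same pool kept the least. The level remaining, as a percent of each gene's GV mean, had a median of 15.6% in MII replicate 1 (range 6.02% to 22.3%), 13.0% in replicate 2 (3.39% to 25.0%) and 8.30% in replicate 3 (2.13% to 13.7%). MII replicate 3 was the lowest pool for 94 genes, replicate 2 for 12 and replicate 1 for 0. The highest pool was replicate 1 for 67 genes, replicate 2 for 39 and replicate 3 for 0. Order between pools of one stage was no part of the rule, but the mean over them was.

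**Figure D3:**
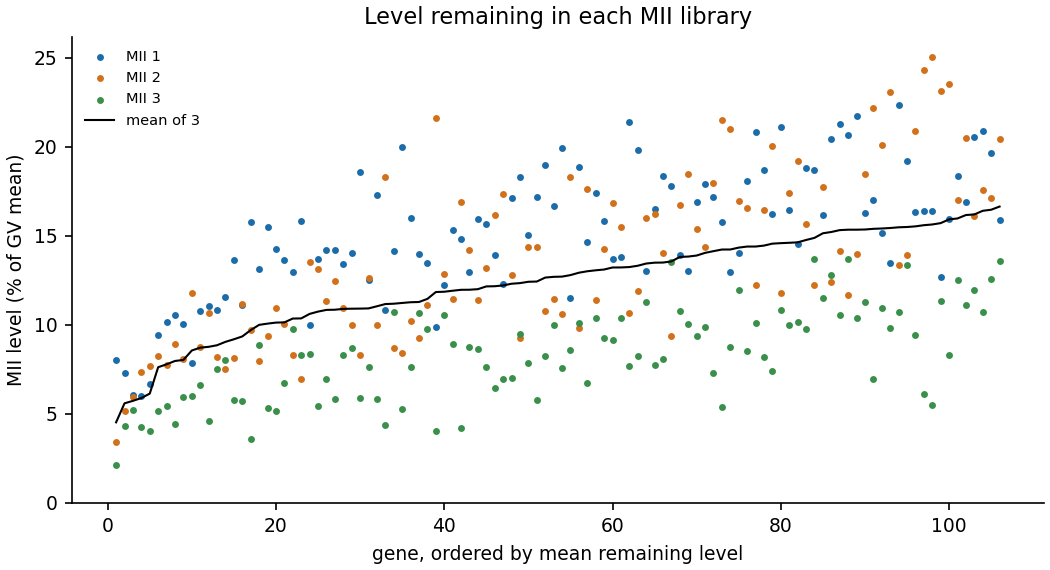
Level of each of the 106 reduced genes in the 3 MII libraries as a percent of the gene's GV mean (y axis), with genes ordered by the mean of the 3 (black line, x axis). MII replicate 3 (green) is the lowest point for 94 genes, and the medians are 15.6%, 13.0% and 8.30% in MII replicates 1, 2 and 3.

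MII replicate 3 also had the smallest TMM factor (0.769, against 0.899 and 0.910 in MII replicates 1 and 2), so more features are low in it on library totals: it was the lowest MII pool for 50.4% of all tested features and 40.6% of the other abundant annotated genes. On TMM-scaled totals these shares were 34.5% and 19.5%, whereas MII replicate 3 was still the lowest for 82 of the 106 genes, with 20 lowest in replicate 2 and 4 in replicate 1. It was the highest for 1. The summed level of the 106 genes was then 19.4%, 16.2% and 12.8% of the GV mean in MII replicates 1 to 3. The share of genes that were lowest in MII replicate 3 was larger in classes with a larger decrease. Among abundant annotated genes it was 23.9% where GV was under MII, 49.4% at a ratio of 1 to 2, 75.1% at 2 to 4 and 85.6% at 4 to 6, next to 88.7% in the reduced genes. On TMM-scaled totals the same classes gave 5.18%, 23.9%, 52.5%, 73.2% and 77.4%. The order of the pools in the 106 genes was thus shared with genes of a smaller decrease, and no difference between neighbouring classes was tested.

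**Figure D4:**
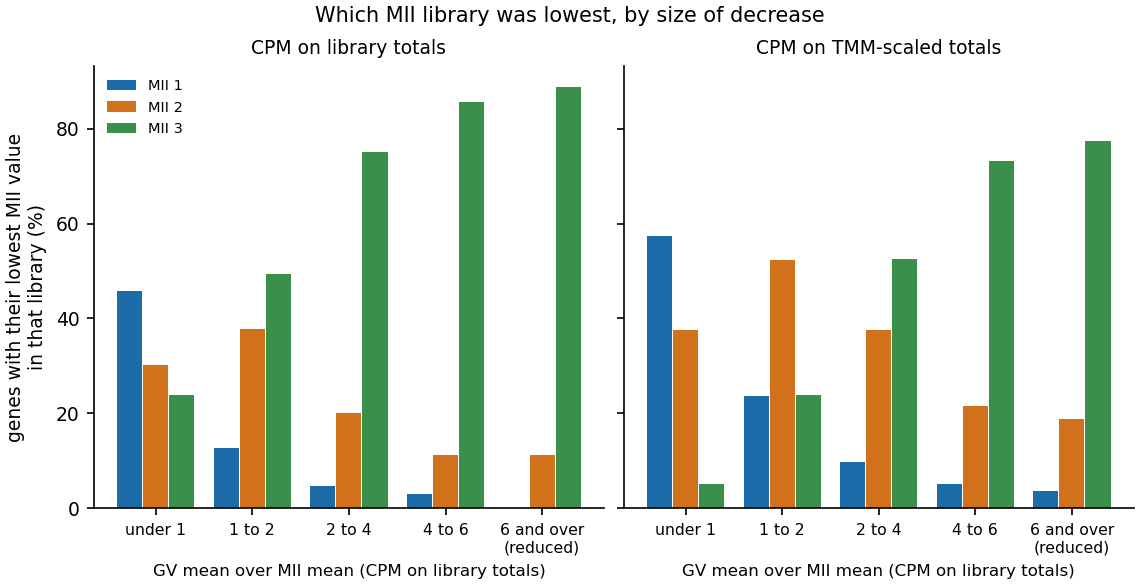
Percent of abundant annotated genes (at least 50 CPM in GV) whose lowest MII value was in each MII library (y axis, bars from 0), in classes by the ratio of GV to MII mean on library totals (x axis), with levels on library totals (left) and TMM-scaled totals (right). The bar of MII replicate 3 is taller in each class of larger decrease, up to 88.7% and 77.4% in the 106 reduced genes.

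The mean that chose the genes included MII replicate 3, so the order was also read in genes chosen without it, likewise after the data were seen. The rule applied without MII replicate 3 gave 78 genes, all of them among the 106. In the replicate left out, all 78 were at or below 1 part in 6 of the GV mean, as were 12.5% of all tested features. The 78 had a median of 7.80% remaining there, where the 2 replicates that chose them had a median of 13.6%. MII replicate 3 was the lowest pool for 66 of the 78 and the highest for 0 (56 and 1 on TMM-scaled totals). Of all tested features, 50.4% were lowest and 18.6% highest there (34.5% and 32.4% on TMM-scaled totals). Without MII replicate 1 the rule gave 135 genes, of which 69 were at or below 1 part in 6 in the replicate left out, where 4.37% of all tested features were. MII replicate 1 was the highest pool for 97 of the 135 and the lowest for 0, where it was for 39.0% and 22.7% of all tested features. Choosing genes that are low in the other replicates by itself favours a higher value in the one left out. Without MII replicate 2 the rule gave 125 genes, of which 74 were at or below 1 part in 6 in the replicate left out, where 6.37% of all tested features were. MII replicate 2 was the highest pool for 57 of the 125 and the lowest for 11, where it was for 42.4% and 26.9% of all tested features. All of the genes in these 3 choices were lower in the MII library left out than in any GV library, where 54.9%, 54.2% and 61.4% of all tested features were for MII replicates 1, 2 and 3. This direction too was nearly set by the choice of genes.

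Within the group, GV replicate 2 and MII replicate 2 tended to deviate in opposite directions. This pair was looked at after the data were seen, and no other pair of libraries was compared within the group. Over all tested features, deviations of libraries numbered 1, 2 and 3 had correlations of −0.0892, −0.230 and −0.0304. The pair described here thus had the most negative value of the 3. The labels state no link between libraries with one number. GV replicate 2 was the lowest GV pool for 59 of the 106 genes (55.7%, against 39.2% of the other abundant annotated genes). Among the 39 genes whose highest MII value was in replicate 2, the lowest GV value was in GV replicate 2 for 32 and the highest for 2, and GV replicate 2 had a median of 88.2% of the GV mean. Among the 67 genes with their highest MII value in replicate 1, GV replicate 2 was the lowest for 27 and the highest for 22, with a median of 100.4% of the GV mean. Across the 106 genes the deviation of GV replicate 2 from the other GV libraries and that of MII replicate 2 from the other MII libraries, as differences of log2(CPM + 0.5), had a Pearson r of −0.48 and a Spearman rho of −0.57. Over the 2791 other abundant annotated genes they had an r of −0.43 and a rho of −0.44, so the same tendency was present there. The genes share the same 6 libraries and their totals and are not independent replicates.

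**Figure D5:**
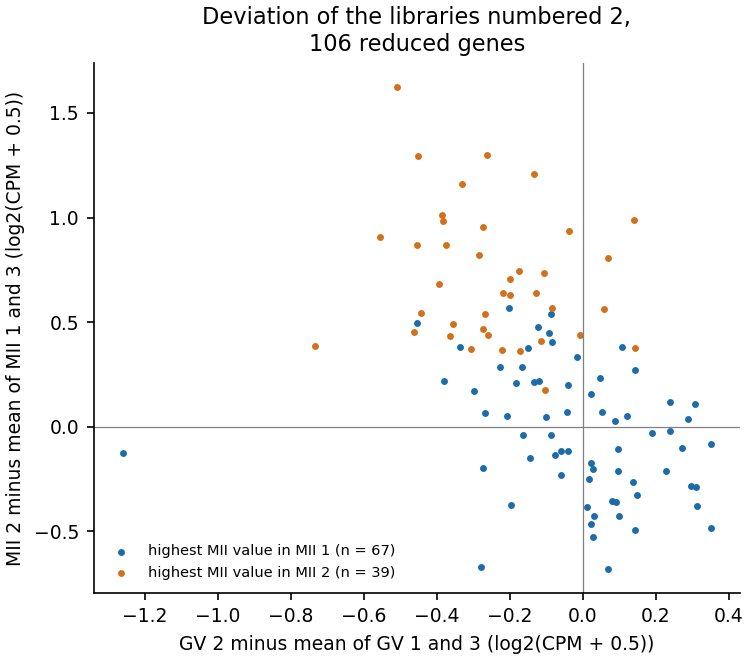
Difference of MII replicate 2 from the mean of MII replicates 1 and 3 (y axis) against that of GV replicate 2 from the mean of GV replicates 1 and 3 (x axis), both as log2(CPM + 0.5), for the 106 reduced genes. Of the 39 genes highest in MII replicate 2 (orange), 32 had their lowest GV value in GV replicate 2 and lie toward the upper left.

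Some reads may be shared between a gene and an assembled locus, the second class of feature in the table (named by the MSTRG numbers of the StringTie assembler). No gene of the 106 had another feature within 1% of its count in every library, and 2 had one within 5%. The gene ranked 12th by GV level, with 404, 472 and 453 CPM in GV and 62.6, 38.6 and 47.5 CPM in MII, had 40959 counts in total, and an assembled locus followed it to within 2.57% in every library with 41664. The gene ranked 102nd, described above for its spread in GV, had 4681 counts and its partner 4719, to within 2.27%. Whether these pairs count the same reads was not tested.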

How the data were processed

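The authors deposited 1 table of whole-number counts per feature, without normalization, for 3 GV and 3 MII libraries. Per the labels' protocols, ribosomal RNA was removed from 3 µg of RNA and reads of 100 bp were paired. Amplification of the RNA is not stated. The genome build was Oar_v3.1 and the tools were STAR 2.7.1a, featureCounts 1.6.4, StringTie 2.0, Trimmomatic 0.38 and DESeq2, per the submitters' processing notes. Neither their roles nor the strand setting are stated, so overlapping or near-identical genes may share reads. Of 18914 Ensembl identifiers, 0 matched a table of 35057 RefSeq genes (ARS-UI_Ramb_v3.0). Planned gene lists and marker checks were therefore not run.

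CPM used raw column totals. The stage difference was fitted with edgeR 4.0.16 in R 4.3.3 on 19302 features passing filterByExpr (all 106 genes did), with TMM scaling, and checked on simulated data. Named genes were the most abundant and the most reduced, and others are given by rank. The rule, the genes and all lists were chosen with earlier results of these data known. Alternatives were other scalings, filters and thresholds, DESeq2 1.42.0, the replicate number as a block, and each library left out in turn.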

Additional observations from a re-analysis of the deposited data

How the results depend on the processing

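Each of the 106 genes was called lower in MII in all 13 other fits. Those fits tested 10820 to 25609 features and called 3243 to 7140 of them lower. The rule used the stage difference, so the calls of the 106 genes describe the group and support nothing. Of 19302 tested features, 5057 were called lower in the main fit and 7140 with library totals. The median log2 fold change of the 106 genes was −2.98 with scaling by library totals, against −2.55. That scaling gave 2332 features higher in MII, and a filter of 5 CPM in 3 libraries, which tested 10820 features, gave 3243 lower. The number of genes meeting the rule was 42 on TMM-scaled CPM, 179 and 58 with a GV minimum of 20 and 100 CPM, 203 and 51 at a ratio of 4 and 8, and 78 to 135 leaving out each library. The group held 1.90% of GV counts without its 3 most abundant genes, and all 106 genes held 2.84% of the GV counts of annotated genes. The median SD of log2(CPM + 1), another unit than the CV, was 0.151 in GV and 0.476 in MII. Leaving out each library gave a median CV of 0.0761 to 0.098 in GV, where a pair of pools remains, and 0.197 to 0.411 in MII. With TMM and DESeq2 size factors, MII replicate 1 was lowest for 4 and 6 genes, replicate 2 lowest for 20 and 21, and replicate 3 highest for 1 and 1. Within 5%, 2 genes had a partner feature. Over all tested features, deviations of GV and MII libraries with one number had correlations of −0.0892, −0.230 and −0.0304, so such libraries did not deviate alike. Whether the numbers pair the libraries is not stated, and these values cannot settle it. The replicate block gave a median log2 fold change of −2.61 with all 106 calls kept. The cause of these changes was not tested, apart from stricter thresholds by construction.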

Other observations

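Assembled loci also met the thresholds of the 106 annotated genes. Of 624 loci with at least 50 CPM in GV, 30 (4.81%) had an MII mean of at most 1 part in 6 of the GV mean, with a median ratio of 8.41 and a GV mean of 50.3 to 2310 CPM. They took 0.856%, 1.04% and 0.781% of counts in the GV replicates and 0.134%, 0.111% and 0.0863% in the MII replicates. MII replicate 3 was the lowest MII pool for 25 of the 30 and the highest for 0. The difference in frequency from annotated genes was not tested.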
